A study of Mus musculus with 49 samples.

Results

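Budding organoids (BOs) grown from adult intestinal crypts were compared with freshly isolated adult hepatocytes, to describe how the transcriptome of an intestinal epithelium differs from that of the hepatic one, which metabolic genes both carry and which transcripts are found on one side alone. The members are the 7 libraries that the labels assign to these 2 groups, out of 49 libraries of 16 groups in the series. Both groups came from wild-type C57BL/6J mice aged 10 weeks. The 3 libraries of fresh hepatocytes (replicates 1, 2 and 3) were made from livers dissociated with collagenase, from which the hepatocytes were spun down to leave other liver and blood cells behind, and were lysed without culture. The 4 libraries of intestinal stem cell-derived BOs (ISC-BOs, replicates 1 to 4) were made from crypts of the small intestine that were embedded in Matrigel and cultured as organoids. An ISC-BO holds the intestinal stem cells, their proliferating progeny and the absorptive and secretory cells they form, without the stroma, vessels or immune cells of the gut wall. The groups therefore differ in organ, in culture and in cell division together, and these cannot be told apart here. Nothing in the labels ties a library to an animal, so p-values measure the spread between these libraries, which may be technical.

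RNA was measured by CEL-seq2, which counts the 3′ ends of transcripts by a random tag on each molecule (UMI). A UMI count is therefore not divided by gene length. The 7 libraries held between 1211070 and 2337097 UMIs, fresh hepatocytes 1211070 to 1523804 and ISC-BOs 1757504 to 2337097. The UMI has 6 bases, so that no gene can be counted more often than the number of sequences such a tag can take. Between 40 and 67 genes exceeded 3000 UMIs in each library of fresh hepatocytes and between 18 and 34 in each library of ISC-BOs, and for these genes levels and differences are compressed. Mitochondrial transcripts made up 2.9 to 3.3% of UMIs in fresh hepatocytes and 1.6 to 1.8% in ISC-BOs, and transcripts of ribosomal proteins 1.65 to 2.09% and 5.37 to 6.08%. The methods give male mice as the source of both groups. However, Xist, the RNA of the inactive X chromosome, had 579, 511, 1 and 0 UMIs in ISC-BOs, while the Y-linked Ddx3y had 444, 264 and 612 UMIs in fresh hepatocytes and 0, 0, 408 and 323 in ISC-BOs. ISC-BOs replicates 1 and 2 thus carried Xist and no Ddx3y, against the stated sex, and the counts of called genes are also given without them. The ISC-BO libraries therefore did not all come from the same animal. Among fresh hepatocytes, and among ISC-BO libraries alike in these markers, the spread may still be technical. In bulk RNA, fewer cells of a type and less RNA per cell cannot be told apart.

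Liver and small intestine arise from neighbouring regions of the gut endoderm. Hepatocytes secrete most plasma proteins, make bile acids, detoxify drugs, form urea and release glucose, whereas enterocytes digest and absorb nutrients through a brush border and send bile acids, fat and amino acids towards the liver. Both epithelia share the nuclear regulator HNF4α, and the caudal homeobox proteins CDX1 and CDX2 are restricted to the intestinal side. In the crypt, WNT signals maintain LGR5+ stem cells beside Paneth cells, and their daughters become enterocytes, goblet cells, enteroendocrine cells or tuft cells.

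Promoter sequences are shown for 4 genes on which the description turns, 1 hepatic and 3 intestinal. The intestinal windows were chosen because they held a motif bound by these regulators. Alb encodes albumin, Sis the sucrase-isomaltase that splits dietary sugars, Lct the milk-sugar enzyme lactase and Alpi intestinal alkaline phosphatase. Each window runs 5′ to 3′ on the strand of the gene, from 250 bases before to 50 after the transcription start in RefSeq (GRCm38.p6), with motif matches in capitals. The windows lie at chr5:90460620-90460919 (Alb, + strand), chr3:72967814-72968113 (Sis, - strand), chr1:128328269-128328568 (Lct, - strand) and chr1:87101557-87101856 (Alpi, - strand).
Alb: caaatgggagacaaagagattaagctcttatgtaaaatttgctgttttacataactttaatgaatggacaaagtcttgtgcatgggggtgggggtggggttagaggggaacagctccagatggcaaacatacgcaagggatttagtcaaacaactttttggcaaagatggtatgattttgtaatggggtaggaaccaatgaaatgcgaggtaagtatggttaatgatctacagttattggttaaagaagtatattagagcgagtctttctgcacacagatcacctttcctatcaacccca
Sis: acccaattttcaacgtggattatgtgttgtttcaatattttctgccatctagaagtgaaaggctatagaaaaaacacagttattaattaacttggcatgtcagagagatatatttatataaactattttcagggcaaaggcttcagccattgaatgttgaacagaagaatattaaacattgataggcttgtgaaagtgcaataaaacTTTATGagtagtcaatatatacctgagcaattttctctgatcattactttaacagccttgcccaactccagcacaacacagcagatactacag
Lct: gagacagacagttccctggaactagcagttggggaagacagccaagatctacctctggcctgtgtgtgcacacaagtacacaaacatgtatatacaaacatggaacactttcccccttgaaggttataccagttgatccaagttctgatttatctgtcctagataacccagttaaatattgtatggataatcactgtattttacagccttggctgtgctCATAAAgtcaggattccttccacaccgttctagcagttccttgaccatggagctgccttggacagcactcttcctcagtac
Alpi: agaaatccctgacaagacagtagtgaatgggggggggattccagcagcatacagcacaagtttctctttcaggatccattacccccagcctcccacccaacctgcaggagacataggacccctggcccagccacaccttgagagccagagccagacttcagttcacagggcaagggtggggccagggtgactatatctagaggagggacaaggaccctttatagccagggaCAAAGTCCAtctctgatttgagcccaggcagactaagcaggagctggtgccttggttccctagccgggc
The motifs searched on both strands were the core bound by caudal homeobox proteins (TTTATG) and an HNF4 site (CAAAGTCCA), which did not overlap in these windows. The Alb window held neither. The Sis window held the caudal core 43 bases before the start. The Lct window held the caudal core on the opposite strand 31 bases before the start, and the Alpi window the HNF4 site 19 bases before it. Over the promoters of 27025 genes, 12.1% held the caudal core and 0.477% the HNF4 site. Among the 30 promoters matched to brush border genes called higher in ISC-BOs, 16.7% (5) held the caudal core and 6.67% (2) the HNF4 site. Of the 21 matched to plasma protein genes called lower, 19.0% (4) held the caudal core and 0% the HNF4 site. Over all called genes, the caudal core was in 8.08% of 1201 promoters of higher genes and 8.92% of 1087 of lower genes. The HNF4 site was in 0.833% and 1.38% of them. The windows of Vil1, Slc5a1 and Ahsg, searched in the same way, held neither motif and are not shown. A match describes the letters of a window and is not evidence of binding.

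Of 46078 genes in the table, 21569 had at least 1 UMI in the 7 libraries and 11287 passed the filter on low counts and were tested with edgeR's quasi-likelihood test. A gene was called when its adjusted p was under 0.1 and its level differed by more than 2 on the log2 scale, and log2 differences are given as ISC-BOs over fresh hepatocytes ± SE. In all, 3173 genes (28.1%) were called, of which 1668 (14.8% of genes tested) were higher and 1505 (13.3%) lower in ISC-BOs. With ISC-BOs replicates 3 and 4 alone, 1544 genes were higher and 1670 lower. The median log2 difference over all genes tested was 0.08 with TMM scaling, and 52.6% of calls were higher. Library totals without scaling moved that median to 0.88 and the share of higher calls to 70.8%, so differences are relative to the TMM scale. A gene was taken as shared when the 95% interval of its log2 difference lay within -2 to 2 and both groups averaged at least 10 CPM (UMIs scaled to a library of 1e+06), as 4655 genes (41.2%) did. Shared genes can still differ within those limits. Transcripts with at least 10 CPM in every library of one group and no more than 3 UMIs summed over the other numbered 510 for ISC-BOs and 398 for fresh hepatocytes.

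**Figure D1:**
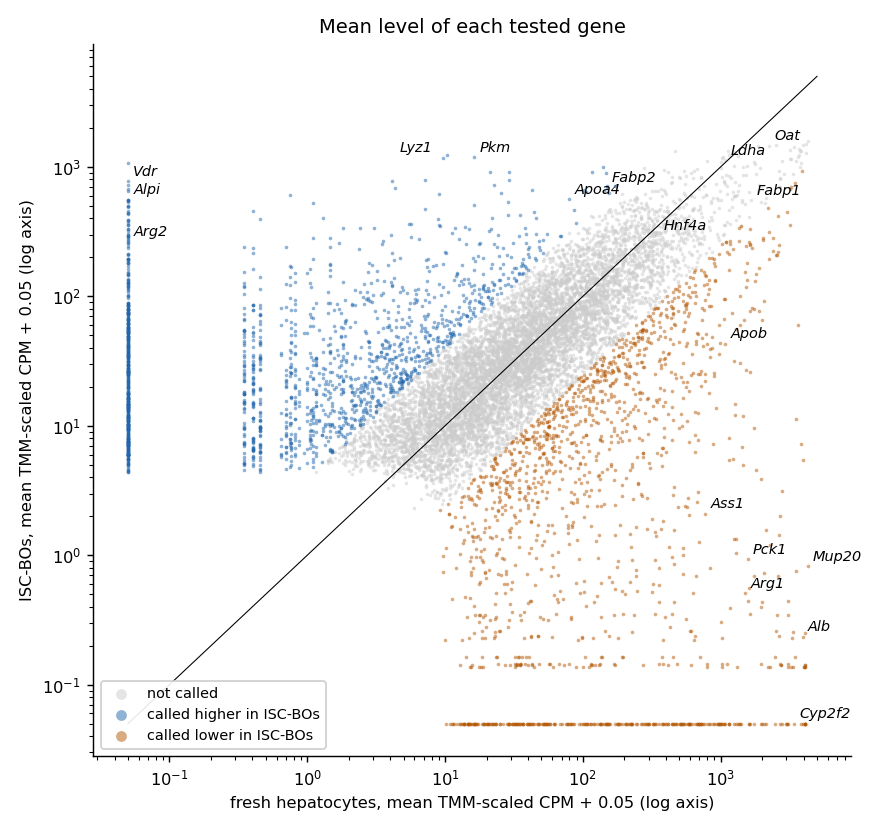
Mean TMM-scaled CPM of each of the 11287 genes tested in fresh hepatocytes (horizontal, n = 3) and ISC-BOs (vertical, n = 4), both on log axes after adding 0.05, with colours for the 1668 genes called higher and the 1505 called lower in ISC-BOs. Genes at 0 in one group lie along an edge, Cyp2f2 at the lower right and Vdr and Alpi at the upper left, while Oat, Ldha and Hnf4a lie near the line of equal levels.

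The secretory products of the liver were almost absent from ISC-BOs. All 27 genes on the plasma protein list were called lower, beside 13.3% of all genes tested, and the median log2 difference of the list was -11.85 with genes at 0 set to their bound. Alb had 3607, 3733 and 3771 UMIs in fresh hepatocytes, listed in the order of their replicates, and 0, 0, 2 and 0 in ISC-BOs. The ratio of its summed levels was 20148-fold (95% counting interval 5576 to 166389), a value understated by the UMI limit. Ahsg, encoding the fetuin that keeps calcium phosphate soluble in plasma, had 3729, 3953 and 3971 UMIs in fresh hepatocytes and 0 in each library of ISC-BOs, and was at least 14087-fold higher in hepatocytes. Fga, for a chain of fibrinogen, had 3581, 2899 and 3390 against 1, 0, 0 and 0 UMIs. No ISC-BO library came near any library of hepatocytes for these 3 genes. The smallest difference on the list was that of Ttr, the carrier of thyroxine and retinol-binding protein, which kept 189, 239, 133 and 64 UMIs in ISC-BOs beside 2734, 3643 and 3904 in fresh hepatocytes (log2 difference -5.90 ± 0.44, adjusted p = 7.49e-07). Summed over the list, plasma protein transcripts came to 49812 to 67104 CPM per library of fresh hepatocytes and 39.2 to 107 CPM per library of ISC-BOs.

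Complement and coagulation factors were lower throughout, with all 38 tested members of the list lower in ISC-BOs, beside 13.3% of all genes tested. C3, the central component of complement, had 1940, 2571 and 3063 UMIs in fresh hepatocytes and 0, 0, 1 and 1 in ISC-BOs. All 21 major urinary proteins (MUPs), lipocalins that carry pheromones in mouse urine, were lower as well. The Mup genes are near-identical copies with nearly equal counts, so reads are shared among them and single members are uncertain. Hamp, the hepatic hormone hepcidin that limits iron uptake, had 2157, 3289 and 3332 UMIs in hepatocytes and 1 UMI in all ISC-BOs.

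**Figure D2:**
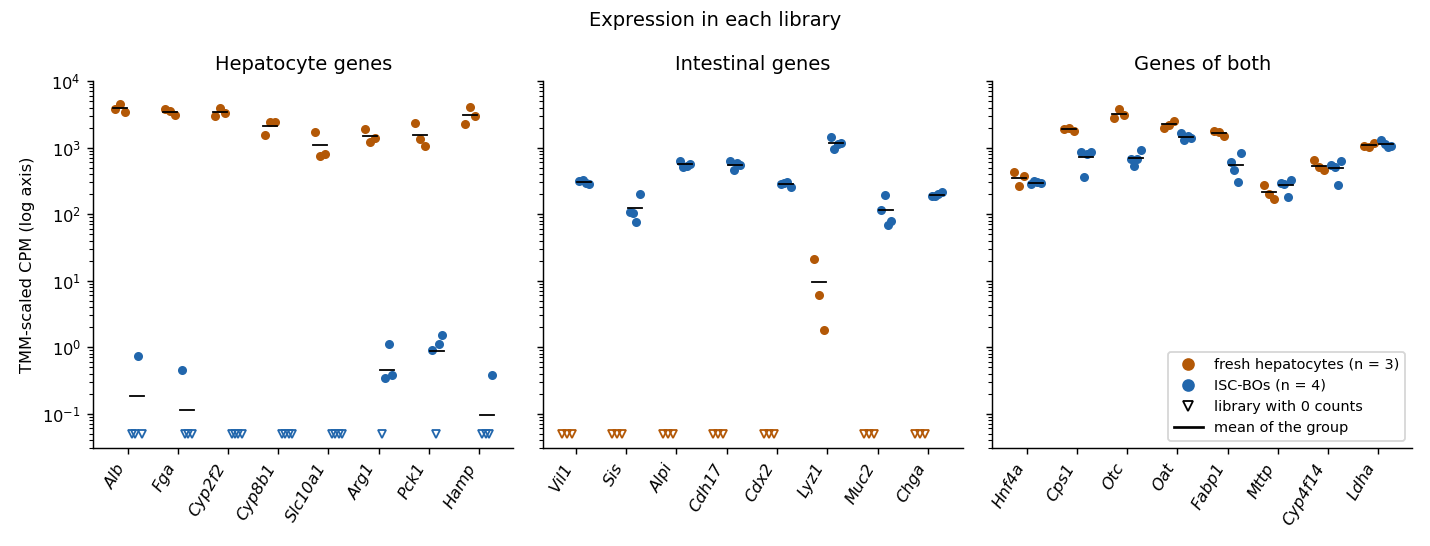
TMM-scaled CPM on a log axis in each library of fresh hepatocytes and ISC-BOs for 8 hepatocyte genes, 8 intestinal genes and 8 genes carried by both, with bars for the group means and open triangles for libraries with 0 UMIs. Alb, Cyp2f2 and Slc10a1 are high in all 3 hepatocyte libraries, Vil1, Alpi and Cdx2 are at 0 there, and Hnf4a, Mttp, Cyp4f14 and Ldha overlap or nearly meet.

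Bile acid synthesis separated the groups completely. Each of its 12 members was lower in ISC-BOs, beside 13.3% of all genes tested. Cyp7a1, the rate-limiting enzyme of the classical pathway, had 112, 206 and 49 UMIs in fresh hepatocytes and 0 in ISC-BOs, at least 444-fold apart. Cyp8b1, which sets the ratio of cholic to other bile acids, had 1449, 1978 and 2657 UMIs and 0 in ISC-BOs (at least 7355-fold). Cyp7a1 varied among the hepatocyte libraries, but all 3 stood above ISC-BOs. Members that also serve the peroxisomal oxidation of fatty acids kept transcripts in ISC-BOs, and Scp2, a sterol carrier whose gene also encodes a peroxisomal thiolase, had 2038, 1539 and 1488 UMIs against 331, 332, 292 and 577 (log2 difference -3.60 ± 0.32, adjusted p = 3.28e-06).

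Transport and sensing of bile acids had 3 of 17 tested genes higher and 12 lower in ISC-BOs, beside 14.8% higher and 13.3% lower of all genes tested. The hepatic uptake carrier Slc10a1 (NTCP) had 1617, 602 and 893 UMIs in fresh hepatocytes and 0 in ISC-BOs. Abcb11, the pump that exports bile salts into the canaliculus, had 696, 664 and 1675 against 0. The genes higher in ISC-BOs were Slc51a and Slc51b, the subunits of the basolateral exporter OSTα-OSTβ, and the exporter Abcc4. Slc51a had 0 UMIs in fresh hepatocytes and 31, 142, 44 and 45 in ISC-BOs, at least 24.1-fold higher. By contrast, the ileal carrier Slc10a2 (ASBT) had 30, 20 and 15 UMIs in fresh hepatocytes and 0, 1, 1 and 3 in ISC-BOs. Fgf15, the ileal hormone that restrains bile acid synthesis, had 1 UMI in the 4 ISC-BO libraries together, and Fabp6, the ileal bile acid-binding protein, had 0, 5, 0 and 1. Nr1h4, the bile acid receptor FXR, was detected in both groups, at 150.2 ± 24.9 CPM (mean ± SD) in fresh hepatocytes and 11.2 ± 2.25 CPM in ISC-BOs (log2 difference -3.75 ± 0.34).

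Cytochrome P450 genes of families 1 to 4 split by member. Of 49 tested, 37 were lower, 6 higher and 2 shared, beside 13.3%, 14.8% and 41.2% of all genes tested. Cyp2f2 had 2775, 3243 and 3698 UMIs in fresh hepatocytes and 0 in ISC-BOs, and Cyp1a2 had 990, 1604 and 2078 against 0. Cyp2e1, which oxidises ethanol and paracetamol, fell from 1281 ± 427 CPM to 0.990 ± 0.536 CPM (log2 difference -10.28 ± 0.48, adjusted p = 2.28e-08). Cyp3a11, the main hepatic drug-metabolising P450 of the mouse, remained detectable in ISC-BOs, with 137, 103, 88 and 346 UMIs beside 3287, 1039 and 1423 (log2 difference -4.94 ± 0.56). On the intestinal side, Cyp2c65 had 1455, 826, 1201 and 1911 UMIs in ISC-BOs and 3 in all hepatocytes, and its relative Cyp2c66 had 554, 500, 490 and 873 against 1. Cyp2s1 had 194, 303, 219 and 125 UMIs in ISC-BOs and 0 in hepatocytes. Every ISC-BO library exceeded every hepatocyte library for these 3 genes. The others called higher were Cyp2b10, Cyp2c55 and Cyp4f16. The shared members were Cyp2d34 and Cyp4f14, and Cyp4f14, an omega-hydroxylase, averaged 535 ± 99.1 CPM in fresh hepatocytes and 489 ± 155 CPM in ISC-BOs (log2 difference -0.13 ± 0.32, interval -0.82 to 0.56).

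Conjugating enzymes of phase II were lower for 19 of 42 genes, higher for 5 and shared for 9, beside 13.3%, 14.8% and 41.2% of all genes tested. Gsta1, an alpha-class glutathione transferase, had 14, 5 and 7 UMIs in fresh hepatocytes and 823, 1027, 519 and 1239 in ISC-BOs (log2 difference 5.25 ± 0.50, adjusted p = 5.15e-06). The other genes called higher were Mgst2, Mgst3, Sult1c2 and Sult2b1. Ugt2b34, a glucuronosyltransferase, was shared at 1071 ± 313 CPM and 739 ± 205 CPM. Its relative Ugt2b1 had 668, 458 and 589 UMIs in fresh hepatocytes and 1, 0, 0 and 1 in ISC-BOs, a ratio of 3109.9-fold (95% counting interval 859.6 to 25699.9). Gstp1 and Gstp2 are near-identical copies with nearly equal counts and are uncertain singly. Carboxylesterases, which hydrolyse ester drugs and lipids, were lower for 9 of 12 members and shared for 3. Ces1c, a secreted form, fell from 1976 ± 349 to 3.87 ± 1.20 CPM (log2 difference -8.98 ± 0.37), whereas Ces2e was near the UMI limit in both groups, with 1605, 2715 and 2851 UMIs and 3696, 3940, 3682 and 3842.

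Enzymes that break down amino acids were lower for 30 of 33 members, and 17 were found in fresh hepatocytes only. Over all 11287 genes tested, 13.3% were lower and 398 were found in fresh hepatocytes only. Tdo2, which opens the ring of tryptophan, had 2371, 1672 and 2267 UMIs in fresh hepatocytes and 0, 1, 0 and 0 in ISC-BOs. Hal, the first enzyme of histidine breakdown, had 718, 500 and 806 against 0. No library of ISC-BOs held more than 1 UMI of these 2 enzymes. Tat, tyrosine aminotransferase, varied widely among hepatocytes, with 1200, 47 and 101 UMIs, and its call was lost with DESeq2. The 3 members not called were Gcsh and Shmt1, of one-carbon metabolism, and Pcca, of propionate metabolism, and the last 2 were shared.

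The urea cycle and the handling of ammonia differed enzyme by enzyme. The list held 4 higher, 12 lower and 2 shared of 22 genes, beside 14.8%, 13.3% and 41.2% of all genes tested. The 2 mitochondrial enzymes that make citrulline were present in both epithelia. Cps1, which fixes ammonia as carbamoyl phosphate, measured 1931, 1974 and 1792 CPM in fresh hepatocytes and 866, 362, 797 and 856 CPM in ISC-BOs. The groups did not overlap, but the log2 difference of -1.40 ± 0.30 (adjusted p = 0.00237) did not reach the fold threshold. Otc, which joins carbamoyl phosphate to ornithine, measured 2763, 3830.1 and 3105 CPM and 666, 529.8, 684 and 927 CPM, a log2 difference of -2.20 ± 0.25 (adjusted p = 2.08e-05) that lost its call with library totals without scaling, with upper quartile factors and with ISC-BOs replicates 3 and 4 alone. The cytosolic enzymes that carry citrulline on to urea were far lower. Ass1 had 324, 923 and 937 UMIs in fresh hepatocytes and 3, 9, 7 and 3 in ISC-BOs (log2 difference -8.49 ± 0.55, adjusted p = 2.68e-07). Asl fell from 1635 ± 529.8 to 76.5 ± 31.7 CPM (-4.42 ± 0.39 on the log2 scale). Arg1, which releases urea, had 1781, 994 and 1549 UMIs and 0, 1, 3 and 1 (-11.43 ± 0.52 on the log2 scale, adjusted p = 1.99e-08).

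Other genes of arginine, glutamine and proline metabolism stood on either side. Arg2, the mitochondrial arginase, had 0 UMIs in fresh hepatocytes and 504, 867, 438 and 997 in ISC-BOs, at least 258-fold higher. Gls2, the liver-type glutaminase, had 401, 281 and 445 UMIs in fresh hepatocytes and 18, 26, 20 and 21 in ISC-BOs (log2 difference -5.57 ± 0.32). Neither gene overlapped between the groups. Aldh18a1, which makes the pyrroline precursor of proline and ornithine, had 0 UMIs in hepatocytes and 45, 91, 37 and 44 in ISC-BOs. Oat, which interconverts ornithine and glutamate semialdehyde, was shared, at 1987, 2207 and 2531 CPM in fresh hepatocytes and 1653, 1279, 1495 and 1401 CPM in ISC-BOs, with counts over 3000 in every ISC-BO library. Glul, glutamine synthetase, fell from 220.4 ± 56.5 to 44.4 ± 10.0 CPM, a call lost with library totals without scaling.

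Gluconeogenesis and fructose metabolism gave 12 lower, 3 higher and 5 shared genes of 22, beside 13.3%, 14.8% and 41.2% of all genes tested. Pck1, the cytosolic enzyme that commits oxaloacetate to glucose, had 2181, 1106 and 1166 UMIs in fresh hepatocytes and 2, 0, 3 and 4 in ISC-BOs (log2 difference -10.71 ± 0.60, adjusted p = 1.04e-07). The mitochondrial form Pck2 went the other way, with 2, 9 and 6 against 204, 328, 282 and 172 UMIs (3.95 ± 0.51 on the log2 scale). Fbp1, the hepatic fructose bisphosphatase, fell from 1066 ± 264 to 95.2 ± 26.4 CPM, whereas its muscle-type relative Fbp2 had 0 UMIs in hepatocytes and 365, 419, 499 and 614 in ISC-BOs, at least 174-fold higher. G6pc, the last step of glucose release, measured 346 ± 163 CPM and 6.08 ± 4.03 CPM (log2 difference -5.81 ± 0.59). Slc2a5, the apical fructose carrier GLUT5, had 3, 8 and 11 UMIs in fresh hepatocytes and 123, 447, 49 and 355 in ISC-BOs (3.56 ± 0.76 on the log2 scale). Later steps of fructose use were present in both epithelia. Tkfc, which phosphorylates glyceraldehyde, was shared at 414 ± 119 and 456 ± 70.4 CPM. Khk, which phosphorylates fructose, measured 166, 622 and 539.8 CPM in fresh hepatocytes and 224, 434, 127 and 149.8 CPM in ISC-BOs, so that the groups overlapped, and the interval of its log2 difference (-2.01 to 0.17) was too wide to call it shared.

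Of 16 glycolytic genes, 9 were higher in ISC-BOs, 7 were shared and none was lower. The shares over all genes tested were 14.8%, 41.2% and 13.3%. Pkm, the pyruvate kinase of proliferating and muscle cells, had 15, 13 and 19 UMIs in fresh hepatocytes and 3236, 3900, 2941 and 2255 in ISC-BOs (log2 difference 6.19 ± 0.36, adjusted p = 1.28e-07). Hk2, a high-affinity hexokinase, had 1 UMI in all hepatocytes and 75, 67, 81 and 60 in ISC-BOs, and Pfkp, the platelet-type phosphofructokinase, rose by 7.16 ± 0.52 on the log2 scale. Slc16a3, an exporter of lactate, had 0 UMIs in hepatocytes and 305, 657, 318 and 304 in ISC-BOs. The shared genes were nearly level or higher in ISC-BOs below the fold threshold. Ldha, lactate dehydrogenase A, averaged 1084 ± 75.3 CPM in fresh hepatocytes and 1124 ± 125 CPM in ISC-BOs (log2 difference 0.05 ± 0.22, interval -0.43 to 0.54). Pgk1, which makes ATP from bisphosphoglycerate, was also shared but averaged 242 ± 33.6 against 586 ± 96.0 CPM (1.28 ± 0.27 on the log2 scale, adjusted p = 0.00222). The other shared genes were Gapdh, Tpi1, Pgam1, Eno1 and Pfkm, of which Eno1 stood at 1.09 ± 0.32 and Pgam1 at 0.20 ± 0.28 on the log2 scale.

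Both organs assemble lipoproteins. The list of fat absorption and lipoprotein assembly held 6 higher, 23 lower and 10 shared genes of 44, beside 14.8%, 13.3% and 41.2% of all genes tested. Apob, the structural protein of chylomicrons and VLDL, measured 865, 1361 and 1023 CPM in fresh hepatocytes and 26.0, 35.4, 47.2 and 63.9 CPM in ISC-BOs (log2 difference -4.65 ± 0.37, adjusted p = 1.21e-06). Mttp, which loads lipid onto it, was shared, at 274, 198 and 169 CPM and 298, 287, 181 and 326 CPM (log2 difference 0.35 ± 0.32, interval -0.34 to 1.04). Apoa4, an apolipoprotein of chylomicrons, had 72, 60 and 99 UMIs in fresh hepatocytes and 1383, 2556, 769 and 1181 in ISC-BOs (2.82 ± 0.41 on the log2 scale). The apolipoproteins of hepatic particles were lower in ISC-BOs, with Apoe at -9.03 ± 0.58 and Apoa1 at -3.14 ± 0.45 on the log2 scale, and Apoc1 and Apoa5 had 0 UMIs there.

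Among partner genes of fatty acid binding and esterification, Dgat2 and Dgat1 were called on opposite sides, and Fabp2 alone was called in its pair. Fabp2, the intestinal binding protein, measured 111, 188 and 146 CPM in fresh hepatocytes and 725, 477, 547 and 1036 CPM in ISC-BOs (log2 difference 2.23 ± 0.36, adjusted p = 2.70e-04). Fabp1, the liver form that enterocytes also carry, measured 1763, 1713 and 1512 CPM and 609.6, 463, 300.3 and 833 CPM (-1.59 ± 0.32 on the log2 scale) and was neither called nor shared. Dgat1, which completes triglyceride synthesis in enterocytes, rose from 30.1 ± 15.3 to 202 ± 49.7 CPM, and Dgat2 fell from 771 ± 205 to 93.8 ± 49.5 CPM. Mogat2, which re-esterifies absorbed monoglyceride, had 2 UMIs in all hepatocytes and 251, 576, 173 and 319 in ISC-BOs. Npc1l1, the apical cholesterol importer, had 0 UMIs in hepatocytes and 128, 109, 181 and 260 in ISC-BOs, at least 62.3-fold higher. Among the shared members were the HDL receptor Scarb1, the fatty acid activators Acsl3 and Acsl5 and the transporter Slc27a4.

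Fatty acid oxidation and ketone formation were lower for 22 of 37 tested genes and shared for 9, beside 13.3% and 41.2% of all genes tested. The count of lower genes dropped to 10 with library totals without scaling, when 1100 of all 11287 genes tested were lower. Oxct1, which lets cells burn ketones, was the 1 gene called higher, with 16, 10 and 7 UMIs in fresh hepatocytes and 907, 764, 850 and 929 in ISC-BOs (4.84 ± 0.43 on the log2 scale, adjusted p = 3.10e-06). Every ISC-BO library stood far above every hepatocyte library. Cpt1a, the gate of mitochondrial import of fatty acids, stood at -2.92 ± 0.32 on the log2 scale, with a mean of 57.2 ± 14.0 CPM in ISC-BOs. The mitochondrial trifunctional protein genes Hadha and Hadhb and the dehydrogenases Hadh and Acadl were shared.

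Of 23 genes of cholesterol synthesis, 15 were shared beside 41.2% of all genes tested, 3 were lower and none was higher, with a median log2 difference of -0.07. The lower genes included Ebp and Sc5d, of the last steps. Ebp, a sterol isomerase, measured 223, 436 and 196 CPM in fresh hepatocytes and 45.2, 48.1, 52.4 and 74.5 CPM in ISC-BOs (log2 difference -2.37 ± 0.37, adjusted p = 2.07e-04). None of the 3 lower genes was called with library totals without scaling, when 3 other members were higher. Of 50 genes of oxidative phosphorylation, 44 were shared. Its median log2 difference was -0.55, and its summed level came to 18841 to 25077 CPM per library of fresh hepatocytes and 13341 to 15037 CPM per library of ISC-BOs, so that the sums did not overlap. The 1 member called, Ndufa4, a subunit of complex IV, stood at -2.05 ± 0.38 on the log2 scale, and that call was lost in 9 of 20 alternatives, among them those without fresh hepatocytes replicate 1 and without ISC-BOs replicate 2 or 3. With no fold threshold, 18 members were lower.

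**Figure D3:**
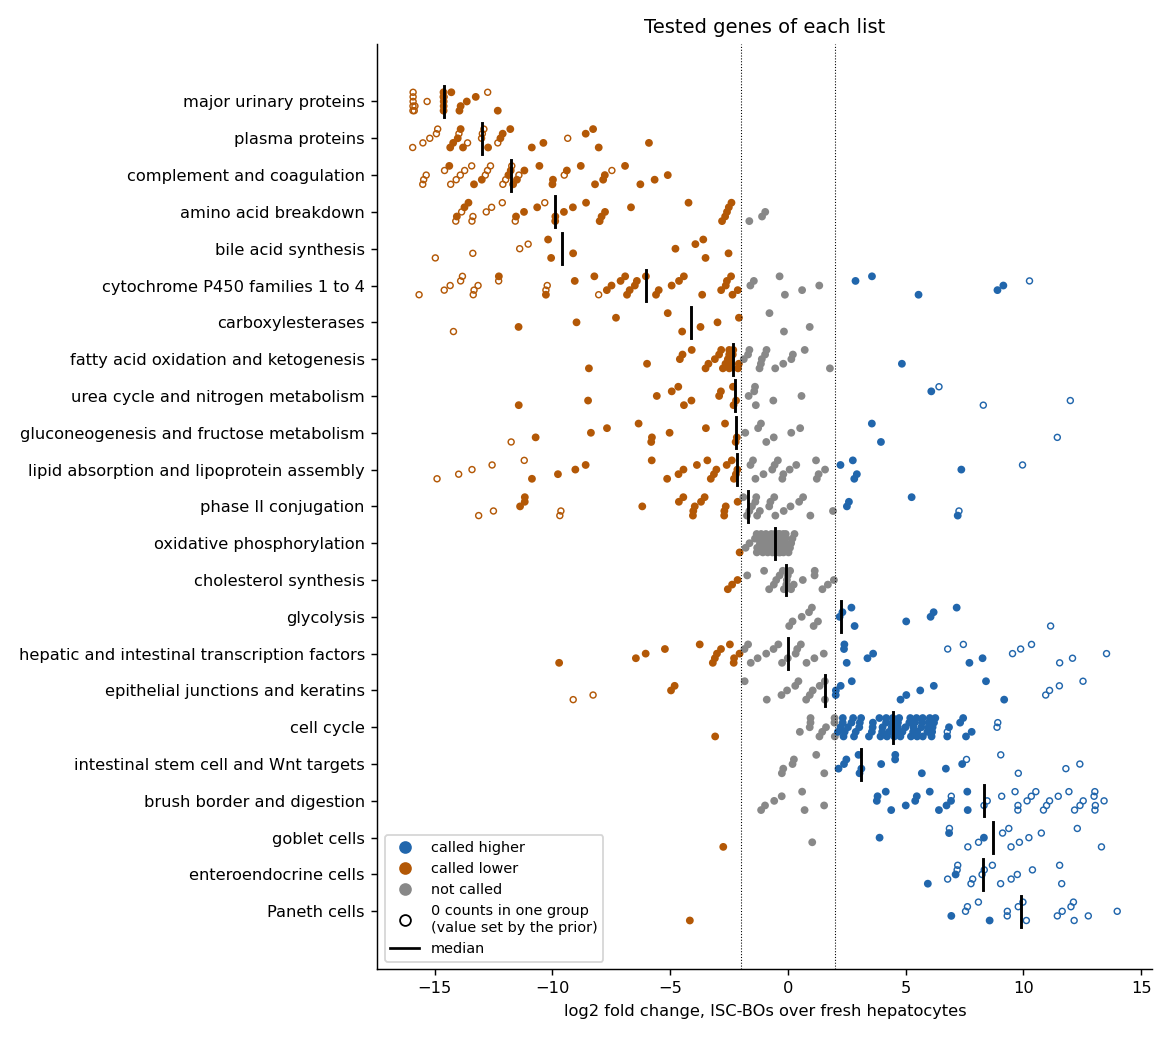
Log2 difference (ISC-BOs over fresh hepatocytes) of every tested member of the gene lists, 1 point per gene, with the list median as a black line, dotted lines at -2 and 2, and open symbols for genes with 0 UMIs in one group, whose position depends on the prior count of the fit. Plasma proteins, MUPs and bile acid synthesis lie wholly below -2, cholesterol synthesis and oxidative phosphorylation lie mostly between -2 and 2, and most brush border and Paneth genes and all tested enteroendocrine genes lie above 2.

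Retinoid metabolism was lower for 12 of 18 tested genes and higher for 2, beside 13.3% and 14.8% of all genes tested. With library totals without scaling 7 were lower, beside 1100 of all 11287 genes tested. Rbp2, the retinol-binding protein of enterocytes, and Bco1, which cleaves β-carotene, were the 2 called higher. Rbp2 had 0 UMIs in fresh hepatocytes and 82, 280, 32 and 137 in ISC-BOs. Rbp4, the carrier that the liver secretes, stood at -8.27 ± 0.33 on the log2 scale.

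Iron, haem and vitamin handling gave 4 higher and 11 lower genes of 26, beside 14.8% and 13.3% of all genes tested. Genes of intestinal iron uptake differed in direction. Cybrd1, the apical ferric reductase, had 0 UMIs in fresh hepatocytes and 150, 308, 288 and 35 in ISC-BOs, and Heph, the ferroxidase of the basolateral side, had 0, 1 and 0 against 48, 58, 41 and 56. The iron importer Slc11a2 (DMT1) measured 87.8, 90.4 and 123 CPM in fresh hepatocytes and 336, 529, 389 and 105 CPM in ISC-BOs, where replicate 4 overlapped the hepatocytes, and it was not called (log2 difference 1.75 ± 0.48). The exporter ferroportin, Slc40a1, measured 106, 122 and 60.4 CPM in fresh hepatocytes and 46.5, 40.2, 45.0 and 2.28 CPM in ISC-BOs, below every hepatocyte library, and was not called (log2 difference -1.52 ± 0.67, interval -2.98 to -0.05). ISC-BOs replicate 4 was the lowest for Cybrd1 as well. Transferrin, Trf, and its receptor Tfr2, which senses iron-loaded transferrin in the liver, were lower at -10.38 ± 0.46 and -8.49 ± 0.52 on the log2 scale.

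The brush border and its digestive enzymes gave the intestinal counterpart of the plasma proteins. Of 43 tested genes, 36 were higher beside 14.8% of all genes tested, 5 were shared and none was lower, and 26 were found in ISC-BOs only. Over all 11287 genes tested, 41.2% were shared and 510 were found in ISC-BOs only. The median log2 difference was 6.02 with genes at 0 set to their bound. Vil1, villin, which bundles actin in microvilli, had 0 UMIs in each library of fresh hepatocytes and 680, 959, 785 and 738 in ISC-BOs, at least 291-fold higher. Alpi had 0 against 1371, 1480, 1443 and 1485 UMIs (at least 531-fold), and Sis had 0 against 237, 306, 202 and 518 (at least 116-fold). Lct, which shares the caudal core with Sis in its promoter window, was low, with 20, 27, 12 and 24 UMIs in ISC-BOs and 0 in hepatocytes. Cdh17, the liver-intestine cadherin, had 0 UMIs in hepatocytes and 1356, 1315, 1574 and 1454 in ISC-BOs, and Slc5a1, the sodium-glucose cotransporter SGLT1, had 0 against 522, 567, 480 and 1092. The 5 shared members, the peptidases Anpep, Dpp4 and Mme, the cystine transporter subunit Slc3a1 and the protocadherin Cdhr5, are known from the apical membrane of liver or kidney cells as well.

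Markers of the crypt were present in ISC-BOs. On the list of stem cell genes and WNT targets, 17 of 23 tested genes were higher, 4 were shared and none was lower. The shares over all genes tested were 14.8%, 41.2% and 13.3%. Lgr5, the R-spondin receptor that marks crypt base stem cells, had 8, 3 and 2 UMIs in fresh hepatocytes and 270, 273, 370 and 212 in ISC-BOs (log2 difference 4.55 ± 0.52, adjusted p = 2.12e-05). Ascl2, a transcription factor of the same cells, had 0 against 694, 1579, 962 and 522 UMIs. Olfm4, another marker of these cells, was nearly undetected, at 1, 1, 2 and 4 UMIs in ISC-BOs. Sox9 was detected in both groups, at 51.4 ± 38.8 CPM in fresh hepatocytes and 270.2 ± 85.1 CPM in ISC-BOs, and its call was lost without fresh hepatocytes replicate 2. Proliferation accompanied these markers, with 68 of 79 tested cell cycle genes higher and summed levels of 921 to 1265 CPM in fresh hepatocytes against 7646 to 8873 CPM in ISC-BOs. Mki67, which marks dividing cells, had 15, 6 and 4 UMIs and 1612, 631, 2100 and 1962, and ISC-BOs replicate 2 was the lowest of its group. The 1 gene lower was Mcm10, a replication initiation factor, at -3.09 ± 0.32 on the log2 scale.

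Markers of each secretory lineage of the small intestine were detected in ISC-BOs. Over all genes tested, 14.8% were higher. Paneth cell genes, of antimicrobial granules, were higher for 17 of 18 tested members. Lyz1, the Paneth lysozyme, had 20, 5 and 2 UMIs in fresh hepatocytes and 3180, 2756, 3066 and 3116 in ISC-BOs (log2 difference 6.94 ± 0.64, adjusted p = 3.84e-06), and Itln1, intelectin, had 0 against 2784, 3191, 2760 and 2267. The 1 Paneth list member called lower was Habp2, which encodes a plasma protease made by the liver, with 277, 257 and 308 against 53, 65, 36 and 15 UMIs. Goblet cell genes were higher for 14 of 16. Muc2, the gel-forming mucin, had 0 UMIs in hepatocytes and 255, 559, 184 and 207 in ISC-BOs. All 16 tested enteroendocrine genes were higher, of 26 listed. Chga, the granule protein chromogranin A, had 0 against 411, 539, 530 and 555 UMIs, and Gcg, which encodes glucagon-like peptides, had 0 against 42, 30, 100 and 108. Somatostatin, Sst, varied from 18 to 294 UMIs between ISC-BO libraries. Tuft cell genes were scarce, with 3 of 16 passing the filter and all of them higher, and Dclk1 had 19, 26, 18 and 20 UMIs in ISC-BOs. Most of the summed level of the list was Cd24a, which averaged 602 ± 87.4 CPM in ISC-BOs where the list averaged 634 CPM.

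Genes of mucosal defence were detected in part on both sides, with 6 of 10 tested members higher, 2 lower and 2 shared. The shares over all genes tested were 14.8%, 13.3% and 41.2%. Pigr, the receptor that carries immunoglobulin A across epithelia, was shared, at 1321 ± 366 CPM in fresh hepatocytes and 602 ± 90.4 CPM in ISC-BOs. The acute-phase proteins Saa1 and Saa2 were lower. Saa1 had 1795, 248 and 202 UMIs in fresh hepatocytes and 0, 1, 0 and 0 in ISC-BOs, with most of its hepatocyte counts in replicate 1.

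Markers of the regions of the gut were detected unevenly in ISC-BOs. Pdx1, a duodenal transcription factor, had 24, 24, 25 and 1 UMIs in ISC-BOs, so that replicate 4 stood below the others. Gata4, of duodenum and jejunum, rose from 20.7 ± 9.42 to 110.2 ± 61.9 CPM (log2 difference 2.40 ± 0.50), a call lost with ISC-BOs replicates 3 and 4 alone. The ileal genes Fabp6, Slc10a2 and Fgf15 were at most 5 UMIs in any ISC-BO library, and the colonic gene Car4 had 0, 4, 4 and 17. Of 28 listed markers, 10 passed the filter on low counts.

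Transcription factors divided into common, hepatic and intestinal sets. Of 43 tested, 15 were higher, 13 lower and 9 shared, beside 14.8%, 13.3% and 41.2% of all genes tested. Hnf4a, which governs metabolic genes in both organs, measured 429, 266 and 368 CPM in fresh hepatocytes and 282, 319, 302 and 288 CPM in ISC-BOs (log2 difference -0.25 ± 0.27, interval -0.84 to 0.34). Its paralog Hnf4g had 0 UMIs in fresh hepatocytes and 146, 161, 132 and 202 in ISC-BOs, at least 58.9-fold higher. Foxa1 and Foxa2 were also shared. Cdx2, the determinant of intestinal identity, had 0 UMIs in every hepatocyte library and 630, 857, 814 and 675 in ISC-BOs (at least 274-fold), and Cdx1 had 0 against 176, 126, 231 and 347. Vdr, the vitamin D receptor, had 0 against 1620, 2037, 2203 and 2230 UMIs, at least 744-fold higher. On the hepatic side, Prox1 had 575, 334 and 1164 UMIs in fresh hepatocytes and 18, 25, 14 and 24 in ISC-BOs (log2 difference -6.46 ± 0.43), and Onecut1 had 133, 44 and 238 against 1, 0, 0 and 0. Cebpa, a driver of hepatic metabolic genes, stood at -3.01 ± 0.31 on the log2 scale and remained at 48.6 ± 10.8 CPM in ISC-BOs.

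Junction and keratin genes were higher for 14, lower for 4 and shared for 7 of 30. The shares over all genes tested were 14.8%, 13.3% and 41.2%. Epcam had 0 UMIs in fresh hepatocytes and 912, 748, 1244 and 1101 in ISC-BOs, and the simple keratin Krt19 had 0 against 461, 680, 503 and 379. Cdh1, E-cadherin, was present in both at 263 ± 98.2 and 778 ± 65.1 CPM and did not reach the fold threshold. Cdh2, N-cadherin, had 34, 33 and 37 UMIs in hepatocytes and 0 in ISC-BOs. The gap junction genes Gjb1 and Gjb2 were lower at -4.81 ± 0.44 and -4.96 ± 0.40 on the log2 scale, and the desmosomal cadherins Dsg2 and Dsc2 were shared.

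In 27 pairs of related genes, listed with one member known from liver and the other from intestine, 10 pairs had the liver member called lower and the intestinal member called higher. Besides Arg1 and Arg2, Fbp1 and Fbp2, and Dgat2 and Dgat1, these included Slc2a2 and Slc2a5, Pygl and Pygb, Gys2 and Gys1, Cyp2c29 and Cyp2c65, and Cdh2 and Cdh17. In 9 pairs the intestinal member alone was higher, including Pkm beside Pklr, Hnf4g beside Hnf4a and Fabp2 beside Fabp1. In 6 pairs the liver member alone was lower, including Mat1a, the hepatic synthase of S-adenosylmethionine, with 2027, 2873 and 2907 UMIs in fresh hepatocytes and 0, 0, 1 and 0 in ISC-BOs. Its partner Mat2a was shared, with a log2 difference of 0.02 ± 0.28. Both members of the pair Slc10a1 and Slc10a2 were lower, and both members of Pfkl and Pfkp higher. The call of Slc2a2, the glucose carrier GLUT2, at -2.17 ± 0.30 on the log2 scale, was lost with library totals without scaling.

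**Figure D4:**
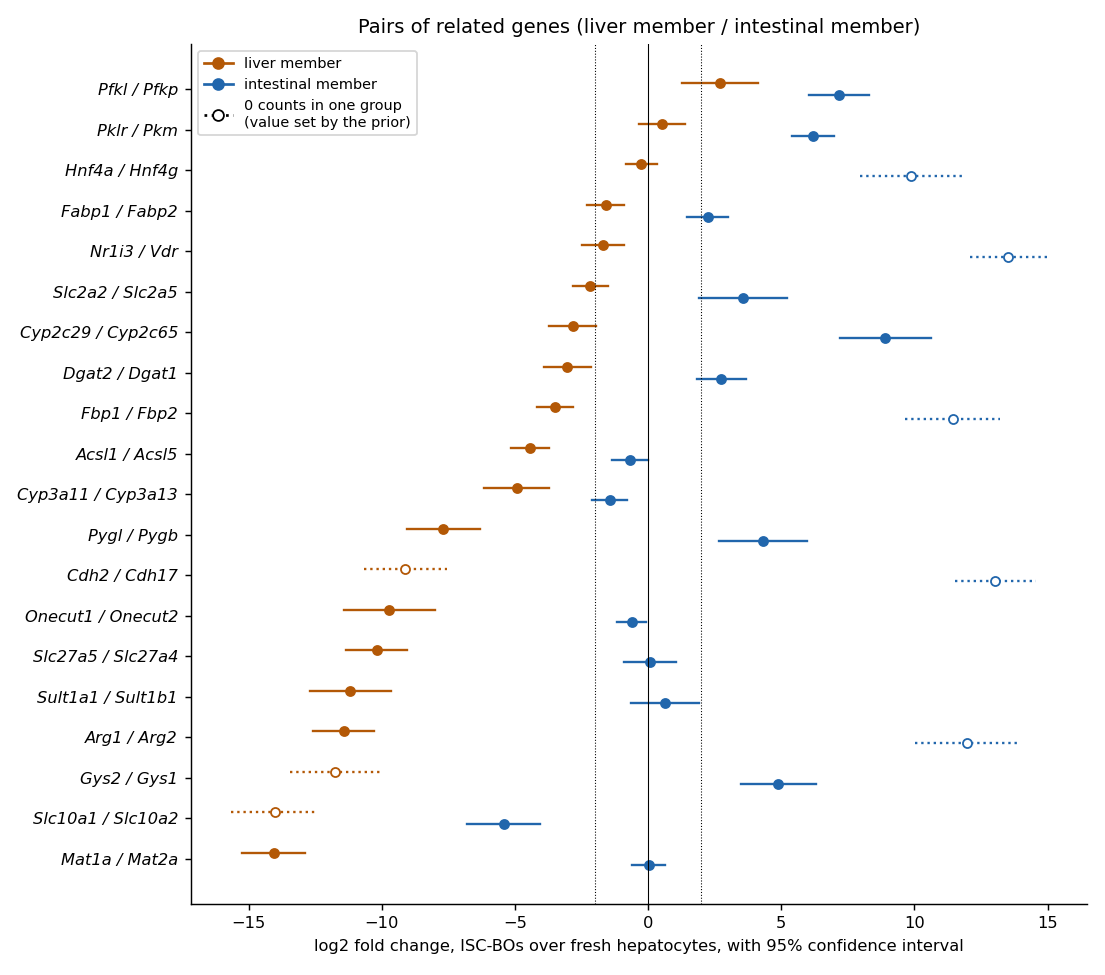
Log2 difference (ISC-BOs over fresh hepatocytes, bars 95% confidence intervals, open symbols and dotted bars for genes with 0 UMIs in one group) of the liver member and the intestinal member of 20 pairs in which both were tested. In 8 of the 20 pairs the members were called on opposite sides of the dotted thresholds at -2 and 2.

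Among the 510 transcripts found in ISC-BOs only, 122 were on one of the lists used here, and among the 398 found in fresh hepatocytes only, 145 were. The highest of the former were Itln1, Vdr, Gpa33, Muc13, Tm4sf20, Cd24a, Alpi, Cdh17, Prap1 and Gm1123. Gpa33, an intestinal surface antigen, had 0 UMIs in hepatocytes and 1687, 2089, 1747 and 1977 in ISC-BOs, and Cd24a had 2 UMIs in all hepatocytes and 1498, 1719, 1746 and 1273. The highest of the latter were Ahsg and 9 Mup genes. Among the 5 most significant calls of each direction, Psat1, of serine synthesis, had 3, 3 and 6 UMIs in fresh hepatocytes and 1896, 2535, 2105 and 1484 in ISC-BOs (log2 difference 7.52 ± 0.42), and Apon, an apolipoprotein, had 1808, 1811 and 2028 against 1, 1, 1 and 1 (-12.11 ± 0.37 on the log2 scale). At the other end, the shared genes with the highest levels included mt-Rnr2, mt-Nd1, Lamp1, Gm28437, Adh1, mt-Co3, Prdx1, Gm10925 and Ces2e. Of the 4655 shared genes, 6 exceeded 3000 UMIs in every library and 32 in at least 1, so their levels were compressed. Adh1, alcohol dehydrogenase, had 3510, 3523 and 3382 UMIs in fresh hepatocytes and 3601, 3566, 3495 and 3398 in ISC-BOs, values that cannot be ranked. Gm28437 and mt-Co3 had near-identical counts and share reads.

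Markers of other cell types that a hepatocyte preparation could hold were low but not absent. Kupffer and other immune cell markers summed to 169 to 528 CPM in fresh hepatocytes and 126 to 365 CPM in ISC-BOs. Of 10 tested genes 9 were lower in ISC-BOs, beside 13.3% of all genes tested. The remaining gene, the lysozyme Lyz2, a close copy of Lyz1 with which it may share reads, was higher, with 67, 45 and 19 UMIs in fresh hepatocytes and 798, 355, 623 and 921 in ISC-BOs (log2 difference 2.49 ± 0.53). Nearly all of the ISC-BO sum came from Lyz2, so the overlapping sums do not describe the other markers. Clec4f, of Kupffer cells, had 57, 52 and 22 UMIs in fresh hepatocytes and 1 in all ISC-BOs, and the pan-leukocyte gene Ptprc had 6, 3 and 2 against 1, 0, 1 and 1. Endothelial markers summed to 674 to 864 CPM in fresh hepatocytes and 68.8 to 95.1 CPM in ISC-BOs, with Clec4g, of sinusoidal cells, at 80, 173 and 173 against 0 UMIs. Stellate cell and mesenchymal markers summed to 233 to 305 CPM against 6.69 to 10.6 CPM, and Dcn had 73, 55 and 46 against 0 UMIs. Cholangiocyte markers, many of which intestinal epithelium also expresses, summed to 121 to 217 CPM in fresh hepatocytes and 1061 to 1523 CPM in ISC-BOs, and the duct markers Krt19 and Epcam were at 0 in fresh hepatocytes. Of 8 erythroid genes listed, 1 was tested and lower in ISC-BOs. That gene, Alas2, had 72, 111 and 199 UMIs in fresh hepatocytes and 0, 0, 1 and 0 in ISC-BOs. Erythroid markers summed to 80.4 to 186 CPM against 0 to 1.49 CPM, and Hba-a1 had 2, 6 and 6 UMIs in fresh hepatocytes. The part of these cells in the genes lower in ISC-BOs was not tested.

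**Figure D5:**
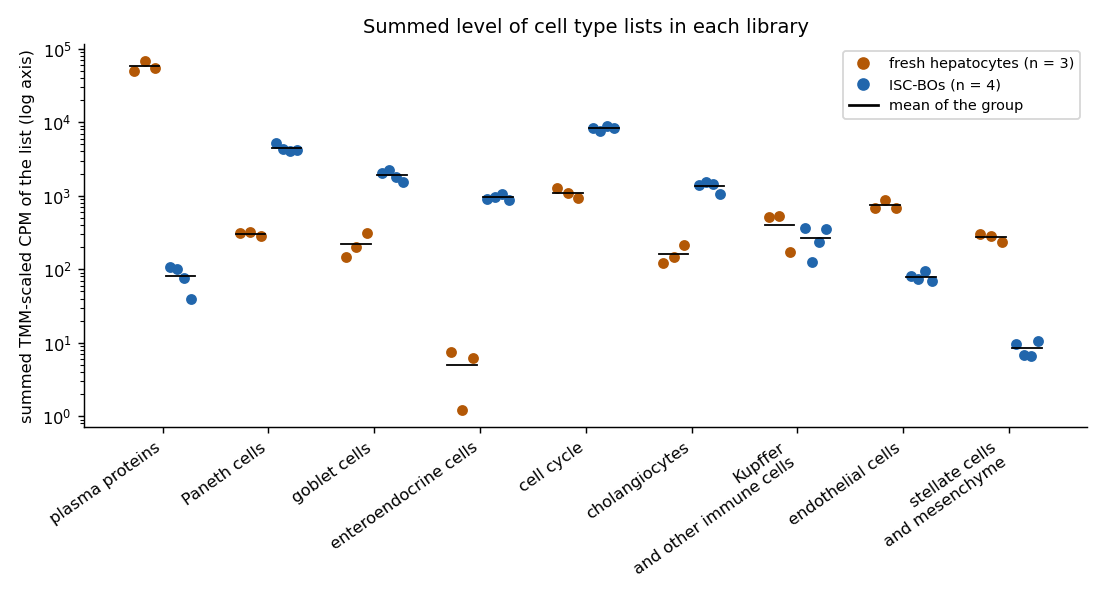
Summed TMM-scaled CPM of 9 marker lists on a log axis in each of the 3 libraries of fresh hepatocytes and the 4 of ISC-BOs. Plasma protein transcripts are high in fresh hepatocytes only, Paneth, goblet, enteroendocrine and cell cycle lists are higher in all 4 ISC-BO libraries, and endothelial and mesenchymal lists are higher in all 3 hepatocyte libraries. The immune cell list overlaps between the groups, and nearly all of its level in ISC-BOs is Lyz2.

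Markers of both zones of the liver lobule were detected in fresh hepatocytes, with periportal Cyp2f2 at 3410 ± 519 CPM and pericentral Cyp2e1 at 1281 ± 427 CPM. The part of each zone in these libraries was not tested. Of 16 periportal genes 11 were lower in ISC-BOs, 1 was shared and 2 (Aldh1b1 and Apoa4) were higher. Of 14 tested pericentral genes 7 were lower, 3 shared and 2 higher. Over all genes tested, 13.3% were lower, 41.2% shared and 14.8% higher. The 2 higher pericentral genes were the WNT targets Lgr5 and Axin2, both also on the stem cell list, and the call of Axin2 was lost without fresh hepatocytes replicate 3. Immediate early and stress genes were lower in ISC-BOs for 8 of 17 tested members, shared for 4 and higher for 2 (Ier3 and Myc). Jun, an early response factor, had 2400, 1647 and 2447 UMIs in fresh hepatocytes and 362, 557, 526 and 594 in ISC-BOs (log2 difference -3.53 ± 0.24), and Fos stood at -3.69 ± 0.44 on the log2 scale. The part of tissue dissociation in these differences was not tested.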

How the data were processed

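CEL-seq2 RNA libraries of fresh hepatocytes (n = 3) and ISC-BOs (n = 4) were used out of 49 libraries of 16 groups. The authors deposited 1 table of raw UMI counts for 46078 genes, made with the celseq2 pipeline. The submitters' processing notes name bcl2fastq 2.20, Bowtie2 2.3.1, HTSeq 0.6.0 and GRCm38. A UMI of 6 bases caps the count of a gene in a library, so differences of abundant genes are understated, and reads of near-identical copies cannot be assigned to one of them.

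Counts were tested with edgeR 4.0.16 (R 4.3.3, limma 3.58.1) on the 7 libraries alone: TMM factors, the filterByExpr filter (minimum count 10, minimum total 15) and the quasi-likelihood F-test, with Benjamini-Hochberg adjustment over the 11287 genes tested. Genes were called at an adjusted p under 0.1 with a log2 difference above 2 in size, as in the study. CPM are TMM-scaled. Folds against a group with 0 UMIs are lower bounds computed from 3 UMIs over that group, and ratios with 1 to 3 UMIs carry 95% counting intervals. Both cover counting error only, and 3 UMIs correspond to 1.97 to 2.48 CPM in one hepatocyte library and 1.28 to 1.71 CPM in one ISC-BO library. Totals ranged from 1211070 to 2337097 UMIs. TMM factors were 0.68 to 0.77 in fresh hepatocytes and 1.26 to 1.30 in ISC-BOs. No pair of libraries agreed within sampling noise, and Spearman correlations over genes were 0.894 to 0.920 among fresh hepatocytes and 0.927 to 0.952 among ISC-BOs.

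The 38 gene lists (1000 genes, 996 found in the table) and 27 pairs of related genes were written by hand, and the members and lists were chosen with earlier results of these data known, so their counts are descriptions. Named genes were the list anchors, the largest called change of each list in each direction, the 5 smallest p in each direction, the 10 highest transcripts found in one group only, the 10 highest shared genes and the members of the pairs. Some genes, pairs and a motif are not reported here. A further 49 of the 200 genes in the text lie outside that rule and were chosen after their values were seen. They include the members that complete a count, such as Ebp, Gcsh and Saa2, and also Gsta1, Pck2, Scp2, Trf, Slc11a2 and Ugt2b34. Promoters came from RefSeq (GRCm38.p6). Code was tested on simulated data. Alternatives covered normalization (RLE, upper quartile, none), the filter, DESeq2 1.42.0, thresholds, all 49 libraries, thinning, correction for UMI collisions, a replicate block, and leaving out each library in turn.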

Additional observations from a re-analysis of the deposited data

Results flagged for a closer look

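Of 151 values examined in the 4 ISC-BO libraries (108 gene levels, 38 list sums and 5 library measures), 12 had 1 library far from the other 3 by Dixon's gap over range. Chance flags about 1 in 20 where values are normally distributed, but a gene with UMIs in 1 library alone is always flagged. The 3 libraries of fresh hepatocytes were too few for this check. For 6 genes the outlying library held 1 or 2 UMIs and the others 0. These were Alb (0.743 CPM in replicate 3), Mat1a (0.372 CPM in replicate 3), Fga and Onecut1 (each 0.456 CPM in replicate 1), and Tdo2 and Saa1 (each 0.344 CPM in replicate 2).

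Replicate 2 stood apart for 3 genes of higher level. Cps1 was at 362 CPM there and at 797 to 866 CPM in the other 3 libraries. Mki67, a marker of dividing cells, was at 217 CPM there and at 736 to 780 CPM in the others. Slc51a, a subunit of the basolateral bile acid exporter, was at 48.8 CPM there and at 14.1 to 17.1 CPM in the others. Replicate 4 stood apart for Slc40a1, ferroportin, at 2.28 CPM against 40.2 to 46.5 CPM. Replicate 3 was lowest for Lct, at 4.46 CPM against 9.12 to 9.28 CPM, and for the summed level of gluconeogenesis and fructose metabolism, at 2863 CPM against 3691 to 3843 CPM. None of these libraries stood apart in its total count, genes detected, TMM factor or shares of mitochondrial and ribosomal protein transcripts.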

How the results depend on the processing

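No alternative called a called gene in the opposite direction, but without fresh hepatocytes replicate 1 the log2 difference of 7 called genes changed sign. Without the filter on low counts, 5055 genes were called and 2592 were lower. Library totals without scaling gave 2673 higher and 1100 lower genes. At an adjusted p under 0.1 with no fold threshold, 6102 genes were called, 3216 higher and 2886 lower. A margin of 1 on the log2 scale left 783 shared genes and a minimum of 50 CPM left 2017. Requiring 0 UMIs in the other group left 303 genes in ISC-BOs only and 240 in fresh hepatocytes only.

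Leaving out each library in turn gave 2969 to 3598 calls, 1528 to 2008 higher and 1439 to 1637 lower, 591 to 618 called list members, 9 to 11 opposite pairs, 4166 to 4586 shared genes, and 517 to 628 and 420 to 442 genes in one group only. Same-numbered libraries had deviations correlated at 0.10, 0.192 and -0.195, and fresh hepatocytes replicate 1 correlated best with ISC-BOs replicate 4 (0.507), so the numbers were not taken to pair them. With a replicate block, 3213 genes were called, 1700 higher and 1513 lower, and 4340 were shared. DESeq2 called 3177, with 18 adjusted p not given. Thinning to the smallest total gave 2855 calls.

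Other alternatives were added after the data were seen. With ISC-BOs replicates 3 and 4 alone 3214 genes were called, and 2862 of the 3173 calls remained. Without genes over 3000 UMIs 3131 were called. Depth limits statements on genes at 0 UMIs to at least 3 UMIs over a group. For genes near the UMI limit in both groups, neither levels nor differences can be ranked.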
